A study of Homo sapiens with 12 samples.

Results

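The 9 genes described here belong to the antioxidant programme of the transcription factor NRF2. They are NFE2L2, KEAP1, HMOX1, SLC48A1, NQO1, GCLC, GCLM, SRXN1 and SOD2, taken by symbol from a table of raw counts with 60656 Ensembl gene IDs. All 9 were matched to an ID and all 9 passed the filter on low counts that left 19636 genes for testing. RNA had been sequenced from 3 established human melanoma lines that the labels call metastatic, A2058, A375 and SKMEL-5. Each line was grown in hypoxia, at 1% oxygen, and in normoxia, at atmospheric oxygen, with 2 libraries per line and condition and so 12 libraries in 6 groups. The series' design text calls the libraries biological duplicates. The time spent in hypoxia is not given in the sources used here.

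NRF2, encoded by NFE2L2, is held at a low level in unstressed cells by KEAP1, an adaptor of a ubiquitin ligase that marks it for destruction. Oxidants and electrophiles modify cysteines of KEAP1, after which NRF2 accumulates, pairs with small MAF proteins and binds antioxidant response elements in the DNA. BACH1, a repressor that heme removes from DNA, competes for these elements, most visibly at HMOX1. The targets supply glutathione, reduce quinones, break down heme and repair peroxiredoxins. NRF2 is mainly controlled through the stability of its protein, which RNA counts do not measure.

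Library totals ran from 33831569 to 54202819 counts. A count of 0 would still allow up to 3 counts, or 0.0553 to 0.0887 CPM (counts scaled by edgeR to a common library total), and such limits cover counting error only. CA9, a standard hypoxia marker, lay at 352 to 725 CPM in the 6 hypoxic and 0.0826 to 19 CPM in the 6 normoxic libraries, which fitted the oxygen labels. The library profiles did not sort cleanly by label in other ways. A375 and SKMEL-5 libraries correlated with each other at 0.912 to 0.990 (Pearson's r of log2 CPM across 19636 genes), as closely as A375 libraries did among themselves (0.917 to 0.982), and TYR and MLANA, pigment cell genes found in A2058, had 0 counts in both. Statements over 3 lines may therefore rest on fewer than 3 separate lines. In addition, 1 hypoxic library of each line, hypoxia 2 of A2058 and hypoxia 1 of both other lines, lay far from the others on the leading component within lines (scores of 72.7, 132 and 108, against -64.0 to -7.45 in the other 9). These 3 are called the outlying hypoxic libraries below, and the 3-line mean of every member is given with and without them.

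No member passed the test for a change in hypoxia. In edgeR's quasi-likelihood test on the mean of the 3 lines, 0 of 9 were called at an adjusted p under 0.05 and 0 had an unadjusted p under 0.05. DESeq2 and limma-voom also called 0, with 0 unadjusted. Of all genes tested, 1.12% were called in this comparison, 0.978% as higher and 0.143% as lower in hypoxia. The members' median log2 difference, hypoxia minus normoxia, was -0.44 and 8 of 9 lay below 0, against a median of 0.02 and 49.0% below 0 over all genes. Without the 3 outlying hypoxic libraries the members' median was -0.17, again with 8 of 9 below 0, against a median of -0.05 and 54.3% below 0 over all genes. The values ran from -0.86 for GCLM to 0.08 for SLC48A1, with adjusted p-values of 0.318 to 0.876. Within single lines 0 members were called as well, where the background was 0.0102% of genes for A2058 and 0% for A375 as well as SKMEL-5, and SOD2 in A375 was the 1 member with an unadjusted p under 0.05 (0.0446). DESeq2 and limma-voom called 0 members in every line too, with 1 unadjusted in A375 by DESeq2. The F test of whether the 3 lines differed in their response called 0 members, against a background of 0%. All 3 tools had 0 members unadjusted, against 1.60% of all genes in edgeR. The 95% intervals were wide. For GCLM the interval of the 3-line mean ran from -1.84 to 0.13 on the log2 scale, and for NFE2L2, the member measured most precisely, from -0.53 to 0.24.

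**Figure D1:**
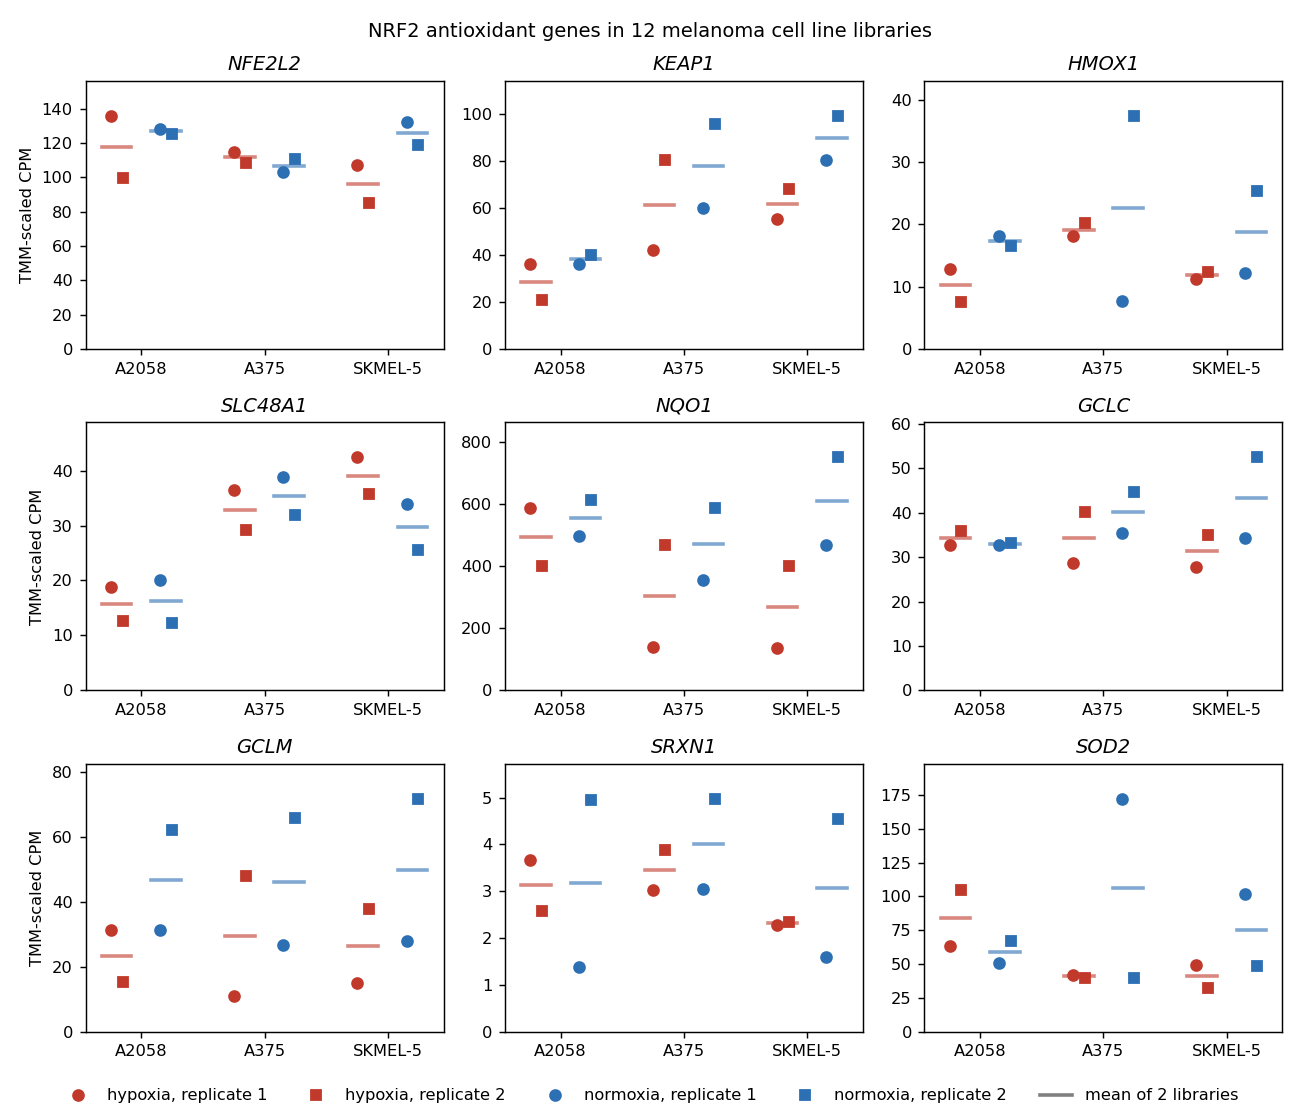
TMM-scaled CPM (linear axis from 0) of the 9 genes in each of 12 libraries, with hypoxia left of normoxia in each line; circles are replicate 1, squares replicate 2 and bars the mean of 2 libraries. KEAP1 and SLC48A1 lie lower in A2058 than in the other lines. For GCLM and NQO1 the 2 libraries of a group often lie farther apart than the oxygen conditions do. For HMOX1 this holds for the normoxic pairs of A375 and SKMEL-5.

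Among the regulators, NFE2L2 RNA varied little. The gene lies on chromosome 2 from 177227595 to 177392697 (minus strand, GRCh38, GENCODE 29; ENSG00000116044.16). Its levels were 85.2, 108 and 136 CPM (lowest, median, highest) in the 6 hypoxic libraries and 103, 122 and 132 CPM in the 6 normoxic ones. The groups overlapped, and the highest of the 12 libraries was 1.59-fold above the lowest. The 3-line mean difference was -0.14 ± 0.17 on the log2 scale (SE; edgeR adjusted p = 0.685), and -0.17 without the outlying libraries. Both hypoxic libraries lay below both normoxic ones in SKMEL-5 (107 and 85.2 CPM, against 132 and 119 CPM), without a call (log2 -0.39, adjusted p = 0.760).

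KEAP1, on chromosome 19 from 10486120 to 10503741 (minus strand; ENSG00000079999.14), differed by line and, within lines, by library. In A2058 it had 36.2 and 20.6 CPM in hypoxia and 36.3 and 40.1 CPM in normoxia, with replicate 1 before replicate 2 in all such pairs. A375 libraries held 42.2 and 80.5 CPM in hypoxia and 59.8 and 95.7 CPM in normoxia. SKMEL-5 libraries held 55.4 and 68.1 CPM in hypoxia and 80.5 and 99.1 CPM in normoxia. The hypoxic libraries thus lay below the normoxic ones without overlap in A2058 and SKMEL-5, while they overlapped in A375. The 3-line mean was -0.44 ± 0.24 on the log2 scale (adjusted p = 0.340), and -0.16 without the 3 outlying hypoxic libraries, each of which was the lowest of its line.

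HMOX1 encodes heme oxygenase 1, which cuts heme into biliverdin, carbon monoxide and iron. It lies on chromosome 22 from 35380361 to 35394214 (plus strand; ENSG00000100292.17). A2058 libraries had 12.9 and 7.47 CPM in hypoxia and 18.2 and 16.5 CPM in normoxia, with no overlap. In A375 the levels were 18.1 and 20.2 CPM in hypoxia, against 7.73 and 37.4 CPM in normoxia, so that both hypoxic libraries lay between the normoxic ones. SKMEL-5 libraries had 11.3 and 12.4 CPM in hypoxia and 12.2 and 25.4 CPM in normoxia. The normoxic A375 pair, 4.82-fold apart, spanned nearly the whole range of the series. The 3-line mean stood at -0.55 ± 0.36 on the log2 scale (adjusted p = 0.417) and moved to -0.037 without A375 normoxia 2. It was -0.41 without the 3 outlying hypoxic libraries.

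SLC48A1, also called HRG1, carries heme out of lysosomes and endosomes into the cytosol, where heme oxygenases act on it. It lies on chromosome 12 from 47753916 to 47782753 (plus strand; ENSG00000211584.14). It was the member with the smallest hypoxia difference over the 3 lines, 0.08 ± 0.21 on the log2 scale (adjusted p = 0.876), and 0.05 without the outlying libraries. A2058 libraries held 18.9 and 12.6 CPM in hypoxia and 20.2 and 12.2 CPM in normoxia. A375 libraries held 36.5 and 29.1 CPM in hypoxia and 38.9 and 31.9 CPM in normoxia. SKMEL-5 libraries held 42.4 and 35.8 CPM in hypoxia, both above the 34.0 and 25.6 CPM in normoxia. That was the 1 case in which a member's hypoxic libraries lay above the normoxic ones without overlap. Of all genes 18.5% were separated in this direction in SKMEL-5, and 19.7% downward, where 3 members were (NFE2L2, KEAP1 and NQO1). In A2058, 2 members were separated downward (KEAP1 and HMOX1) and 0 upward, against 18.6% and 20.5% of all genes, and in A375 0 members were separated in either direction, against 14.2% downward and 18.1% upward.

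NQO1 encodes a quinone reductase and a widely used readout of NRF2 activity. It lies on chromosome 16 from 69706996 to 69726951 (minus strand; ENSG00000181019.13). Per kilobase of exon, with all annotated exons of a gene merged, it was by far the highest member, at 139 CPM per kb averaged over the 6 groups. It was ahead of NFE2L2 (19.1), KEAP1 (15.8), HMOX1 (6.92), GCLM (6.82), SLC48A1 (5.73), GCLC (4.17), SOD2 (4.10) and SRXN1 (1.18). The merged exons were longest for SOD2 (16493 bases) and GCLC (8646 bases), and the order depends on these lengths. A2058 libraries had 588 and 403 CPM in hypoxia and 497 and 614 CPM in normoxia. A375 libraries had 140.0 and 469 CPM in hypoxia and 355 and 589 CPM in normoxia. SKMEL-5 libraries had 137 and 401 CPM in hypoxia, both below the 470.1 and 752 CPM in normoxia. The 2 lowest libraries of all were the outlying hypoxic ones of A375 and SKMEL-5. The 3-line mean was -0.66 ± 0.36 on the log2 scale (adjusted p = 0.341), and -0.20 without the 3 outlying libraries.

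GCLC and GCLM encode the catalytic and the modifier subunit of glutamate-cysteine ligase, the enzyme of the first and limiting step of glutathione synthesis. The catalytic subunit gene, on chromosome 6 from 53497341 to 53616970 (minus strand; ENSG00000001084.13), was nearly level, with 27.8, 33.9 and 40.1 CPM (lowest, median, highest) in hypoxia and 32.7, 34.9 and 52.5 CPM in normoxia. Its 3-line mean was -0.21 ± 0.20 on the log2 scale (adjusted p = 0.581), and -0.13 without the outlying libraries. GCLM, on chromosome 1 from 93885205 to 93909456 (minus strand; ENSG00000023909.10), ranged over 6.54-fold. A2058 libraries had 31.4 and 15.2 CPM in hypoxia and 31.4 and 62.3 CPM in normoxia. A375 libraries had 11.0 and 47.8 CPM in hypoxia and 26.6 and 65.7 CPM in normoxia. SKMEL-5 libraries had 15 and 37.9 CPM in hypoxia and 27.9 and 71.7 CPM in normoxia. The order was the same in every line: the outlying hypoxic library was the lowest and normoxia 2 the highest, with the other 2 libraries between them. The 3-line mean of -0.86 ± 0.45 on the log2 scale (0.553-fold; adjusted p = 0.318) was the lowest of the members. It was -0.33 without the outlying libraries. With no filter on low counts the gene was called (log2 -0.87, edgeR adjusted p = 0.0399). That fit called 1855 genes over all, against 220 in the main fit.

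The core of an antioxidant response element was searched on both strands as TGACNNNGC in the 250 bases before each start site. GCLM and KEAP1 were the members with a match there. Bases farther from the start were not searched, so the other members are not shown to lack the element. RefSeq (GRCh38.p14) gave 13 such windows for 8 members (not HMOX1), and 2 held the core, against 10.9% of 35116 windows of all genes. Both windows are shown because they carry the same 9 bases, TGACTAAGC, on the strand opposite to the gene. The base of the match farthest from the start lies 34 bases before the GCLM start and 31 bases before 1 of the KEAP1 starts. The KEAP1 window also holds TGACACGGC on the strand of the gene. Capitals mark the matches, and each line reads 5′ to 3′ on the gene's minus strand.
GCLM, chr1:93909431-93909680: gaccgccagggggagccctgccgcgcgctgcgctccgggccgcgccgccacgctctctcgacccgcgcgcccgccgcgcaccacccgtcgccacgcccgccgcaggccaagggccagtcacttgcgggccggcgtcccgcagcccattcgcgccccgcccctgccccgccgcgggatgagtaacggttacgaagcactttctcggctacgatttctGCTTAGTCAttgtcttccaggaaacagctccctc
KEAP1, chr19:10502772-10503021: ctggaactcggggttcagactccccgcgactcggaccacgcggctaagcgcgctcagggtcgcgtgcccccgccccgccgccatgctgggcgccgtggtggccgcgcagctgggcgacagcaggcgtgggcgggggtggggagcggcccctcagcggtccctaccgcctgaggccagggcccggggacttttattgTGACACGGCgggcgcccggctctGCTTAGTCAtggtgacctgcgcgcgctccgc
A match of letters is a description and shows no binding. ACGTG, the 1 form of the hypoxia response element core that was searched (on either strand), was found in 0 of the 13 member windows and in 18.5% of all windows. The form GCGTG, which stands in the KEAP1 window above, was not searched for. The count of 0 therefore does not show that the windows lack the element.

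SRXN1 encodes sulfiredoxin, which restores peroxiredoxins that peroxide has overoxidised. The gene lies on chromosome 20 from 646615 to 653370 (minus strand; ENSG00000271303.2) and was the lowest member per kilobase, with 54 to 224 counts per library. In GENCODE 29 it shares 85% of its exon bases with a same-strand gene model, AL121758.1, for which no counts were found. Whether the ID of that model is among the counted IDs was not checked. It had 2.29, 2.81 and 3.89 CPM (lowest, median, highest) in hypoxia and 1.38, 3.79 and 4.97 CPM in normoxia, so that the normoxic libraries lay on both sides of the hypoxic ones. The 3-line mean was -0.21 ± 0.40 on the log2 scale (adjusted p = 0.814), -0.10 without the outlying libraries, 0.19 without A2058 normoxia 2 and 0.11 without SKMEL-5 normoxia 2. In normoxia replicate 2 was the higher library in each line, at 4.96 (A2058), 4.97 (A375) and 4.53 CPM (SKMEL-5), while replicate 1 held 1.38, 3.04 and 1.59 CPM in the same order of lines.

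SOD2 encodes the manganese superoxide dismutase of mitochondria, which turns superoxide into hydrogen peroxide and also answers to NF-kappa-B. It lies on chromosome 6 from 159669057 to 159745186 (minus strand; ENSG00000112096.19). A2058 libraries had 63.6 and 104 CPM in hypoxia and 50.5 and 67.3 CPM in normoxia. A375 libraries had 41.8 and 39.9 CPM in hypoxia, against 172 and 39.9 CPM in normoxia. SKMEL-5 libraries had 49.3 and 32.5 CPM in hypoxia, against 102 and 48.6 CPM in normoxia. The high normoxic values of A375 and SKMEL-5 came from replicate 1 in both, while replicate 2 lay among the hypoxic libraries. The A375 difference was -1.38 ± 0.61 on the log2 scale (unadjusted p = 0.0446, adjusted p = 0.840), and the 3-line mean -0.58 ± 0.35 (adjusted p = 0.375). Without the outlying libraries the 3-line mean was farther from 0, at -0.86 and without a call, and without A375 normoxia 1 the A375 difference was 0.024. Its exons share 298 bases with those of WTAP on the opposite strand.

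**Figure D2:**
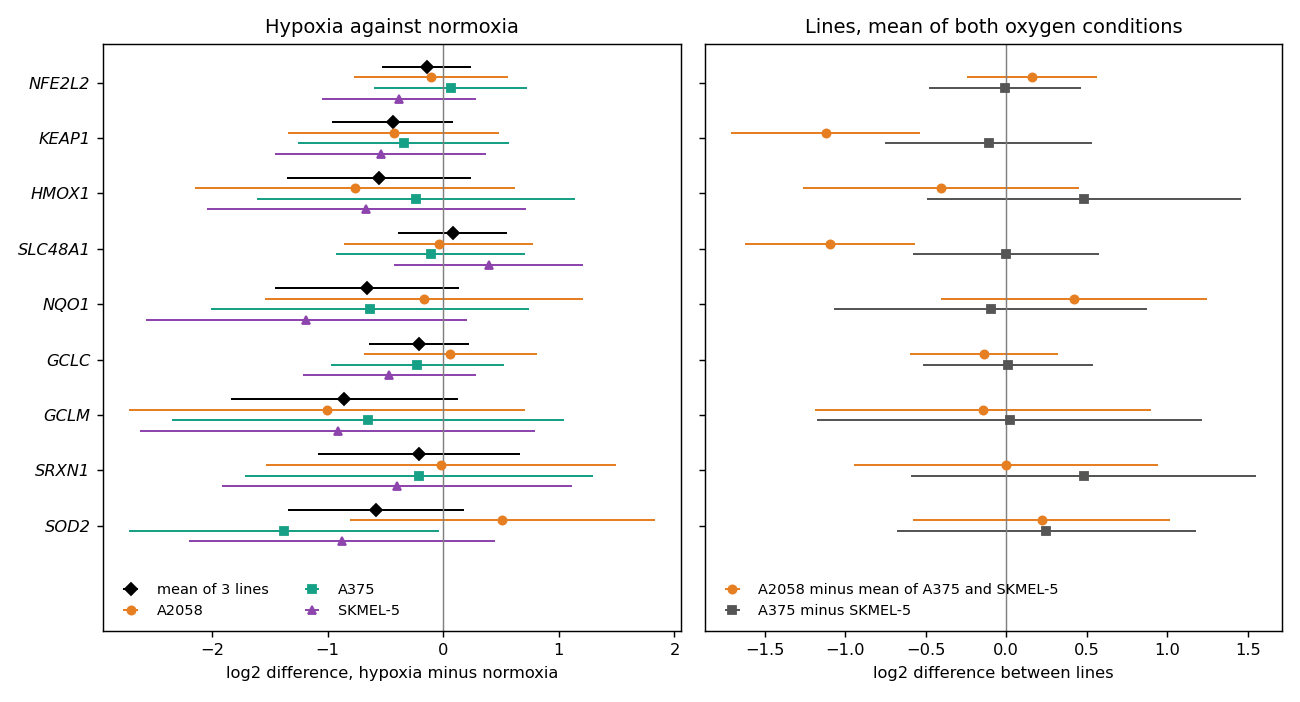
Log2 differences with 95% intervals from the edgeR fit for the 9 genes; the left panel shows hypoxia minus normoxia in the 3-line mean and in each line, the right panel A2058 minus the mean of A375 and SKMEL-5, and A375 minus SKMEL-5, averaged over both oxygen conditions. All 9 intervals of the 3-line mean include 0, and on the right those of KEAP1 and SLC48A1 in A2058 lie below 0.

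The lines differed in 2 members. Averaged over both oxygen conditions, KEAP1 was lower in A2058 by -1.12 ± 0.27 on the log2 scale (0.460-fold of the mean of A375 and SKMEL-5; edgeR adjusted p = 0.00748). SLC48A1 was lower in A2058 by -1.09 ± 0.24 (0.468-fold; adjusted p = 0.00462). For both genes the 4 A2058 libraries lay below the 8 others without overlap: KEAP1 at 20.6 to 40.1 CPM, against 42.2 to 99.1 CPM, and SLC48A1 at 12.2 to 20.2 CPM, against 25.6 to 42.4 CPM. Such separation was seen downward for 11.9% of all genes and upward for 10.6%, where 0 members were. A lower call was made for 16.5% of all genes tested, a higher call for 17.2% and a call in either direction for 33.7%, so 2 of 9 is not a high share. Both calls held against A375 alone (adjusted p = 0.0199 for KEAP1 and 0.0104 for SLC48A1), against SKMEL-5 alone (0.0128 and 0.0104) and without the 3 outlying hypoxic libraries (0.0178 and 0.0418). In the normoxic libraries alone the differences were -1.13 and -1.0, with adjusted p-values of 0.0618 and 0.0624, and in the hypoxic ones alone -1.11 and -1.18, with 0.0580 and 0.0297.

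The other 7 members were not called between A2058 and the other lines, with log2 differences of -0.41 for HMOX1 to 0.42 for NQO1. NFE2L2 stood at 0.16 ± 0.18 (95% interval -0.25 to 0.56; adjusted p = 0.548). Between A375 and SKMEL-5, edgeR, DESeq2 and limma-voom each called 0 members, with 0 at an unadjusted p under 0.05. In edgeR the background was 0.0102% of genes called and 1.78% unadjusted. HMOX1 and SRXN1 had the largest differences, both 0.48. Across the 6 groups ordered by mean, 40 of 45 neighbouring pairs overlapped in their libraries. The same count was not made for all genes, so it is a description of the members alone. The steps without overlap were 2 for KEAP1 (A375 hypoxia to A2058 normoxia, and A2058 normoxia to A2058 hypoxia), and 1 each for SLC48A1 (SKMEL-5 normoxia to A2058 normoxia), HMOX1 (A2058 normoxia to SKMEL-5 hypoxia) and SOD2 (A2058 normoxia to SKMEL-5 hypoxia). Of the KEAP1 steps, that within A2058 lay between 36.3 CPM (normoxia 1) and 36.2 CPM (hypoxia 1). Summed marker levels moved with the line too, although the keratinocyte sums overlapped. The 8 melanocyte and neural crest markers summed to 2542 to 7813 CPM in A2058 libraries, against 883 to 1554 CPM in A375 and SKMEL-5, and the 7 fibroblast markers to 24.6 to 104 CPM, against 5.0 to 10.8 CPM. The 8 macrophage and blood markers summed to 0.826 to 2.08 CPM in A2058, against 3.13 to 15.7 CPM. The 7 keratinocyte markers summed to 43.9 to 75.4 CPM, against 50.5 to 144 CPM. Few genes carried these sums, as counts over all 12 libraries show. LYZ had 2887, against 104 or fewer in each other blood marker, with PTPRC at 34 and CD163 at 5. KRT10 had 34698 and KRT14 4389, while KRT5, KRT1, DSG3 and TP63 had 21, 1, 0 and 26. COL1A1 and LUM had 5271 and 3737, against 1129 or fewer in each other fibroblast marker. SOX10 alone had 765 to 1265 CPM in A375 and SKMEL-5, and 947 to 1684 CPM in A2058. The part of these markers in the line differences was not tested, and in bulk RNA fewer cells expressing a gene cannot be told apart from less RNA per cell.

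Several members differed between replicates in the same direction in every line. In normoxia, KEAP1, NQO1, GCLC, GCLM and SRXN1 were higher in replicate 2 than in replicate 1 of every line, 5 of 9 members, against 23.8% of all genes. SLC48A1 was lower in replicate 2 of every line, 1 of 9, against 26.9%. The GCLM difference between these replicates was 0.99, 1.31 and 1.36 in log2 CPM (lines in the order A2058, A375, SKMEL-5). CA9 also differed between them, at 0.0826, 0.805 and 0.223 CPM in replicate 2, against 19, 4.91 and 9.81 CPM in replicate 1, and its part in these differences was not tested. In hypoxia KEAP1, HMOX1, NQO1, GCLM and SRXN1 were lower in the outlying library of every line, 5 of 9, against 29.9% of all genes, and SOD2 was higher there, 1 of 9, against 24.9%. Here GCLM differed by -1.04, -2.12 and -1.34 and NQO1 by -0.55, -1.74 and -1.55. KEAP1, NQO1, GCLM and SRXN1 followed both patterns, 4 of 9, against 11.5% of all genes. With 1 library on each side in every line these differences have no replicate check, and the A375 and SKMEL-5 libraries resemble each other, so they are descriptions. The count of members lower in the outlying library was 4 with DESeq2's size factors and 6 when scaled by the library total alone, while the count higher in normoxia 2 was 5 with both.

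**Figure D3:**
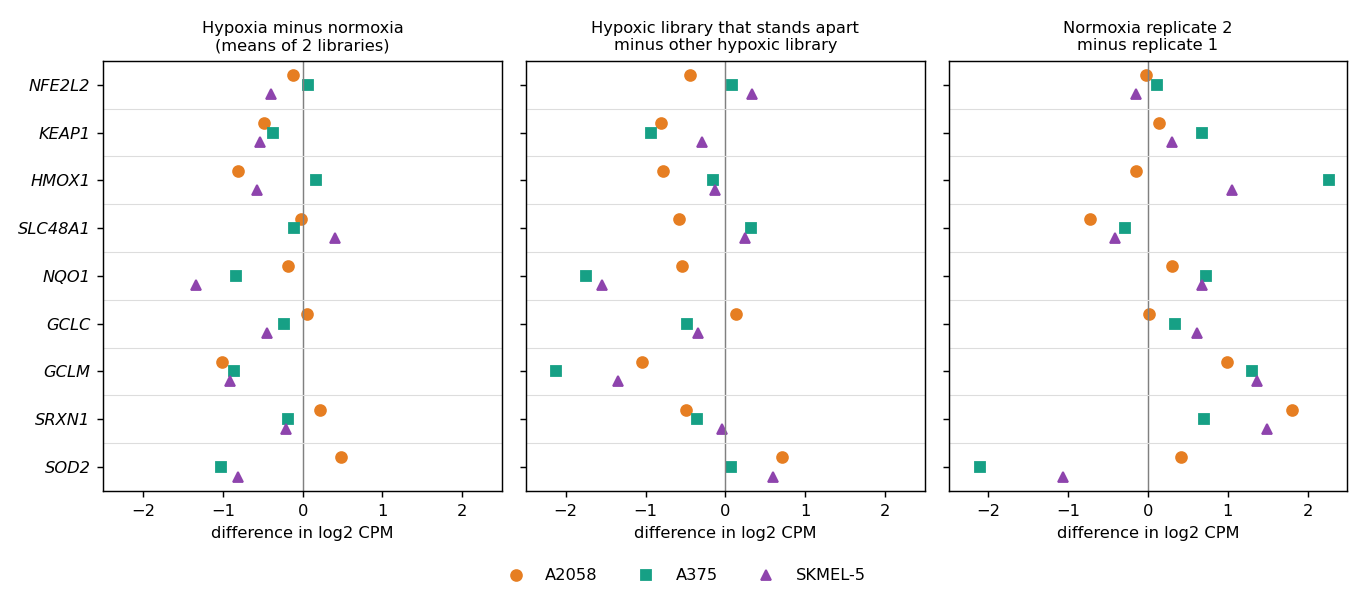
Differences in log2 CPM of the 9 genes in each line: hypoxia minus normoxia as means of 2 libraries (left), the outlying hypoxic library minus the other hypoxic library (middle) and normoxia replicate 2 minus replicate 1 (right). For GCLM the replicate differences in normoxia, 0.99 to 1.36, and in hypoxia, -2.12 to -1.04, are of the size of the oxygen differences or larger.

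After each line's mean was subtracted, members fell into patterns over the 12 libraries, given here as descriptions since libraries share line, depth and the outlying state. GCLM followed KEAP1 with a Pearson r of 0.936 and NQO1 with 0.896, and GCLC followed NQO1 with 0.872. The r of NFE2L2 was 0.452 with KEAP1, 0.421 with HMOX1, 0.193 with NQO1, 0.177 with GCLM and 0.036 with GCLC. HMOX1 and SOD2 ran in opposite directions (r = -0.704), which the normoxic A375 pair shows: replicate 2 had 37.4 CPM of HMOX1 and 39.9 CPM of SOD2, and replicate 1 had 7.73 and 172 CPM. Among 9507 other protein-coding genes of at least 10 CPM, those closest to GCLM were EWSR1 (r = 0.986), CCAR1 (0.985) and ABCF1 (0.983), and those closest to NQO1 were PRPS1 (0.991), SKP2 (0.988) and CCT5 (0.987). KEAP1 lay closest to LANCL2 (0.987), HMOX1 to MBD2 (0.924), SLC48A1 to COL9A2 (0.948), GCLC to WDR3 (0.976), SRXN1 to MTF1 (0.976), SOD2 to THBS2 (0.891) and NFE2L2 to GNPDA1 (0.895).

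Of 90 other genes of the pathway and its surroundings, in 7 lists, 87 were tested, and 1 was called for hypoxia in the 3-line mean, ME1, against the 1.12% of all genes. Their median log2 difference was 0.00, with 43 of 87 below 0. ME1 encodes the cytosolic malic enzyme, which makes NADPH from malate. In A2058 it had 151 and 322 CPM in hypoxia and 57.4 and 43.5 CPM in normoxia. A375 libraries had 142 and 89.5 CPM in hypoxia and 34.3 and 38.8 CPM in normoxia, and SKMEL-5 libraries 123 and 95.7 CPM in hypoxia and 47.4 and 54.6 CPM in normoxia. All 6 hypoxic libraries lay above all 6 normoxic ones, and ME1 rose by 1.66 ± 0.24 on the log2 scale, 3.17-fold (edgeR adjusted p = 0.0115). Without the 3 outlying libraries, which leaves 1 hypoxic library per line, ME1 stood at 1.24 and was not called. CA9 was not called there either, at a log2 difference of 6.72, while it was called at 6.77 with all libraries. The ME1 call was also lost when either normoxic library of A375 or of SKMEL-5 was left out (log2 1.63 to 1.70). In the mean of A2058 and SKMEL-5 alone ME1 was not called either (log2 1.66, adjusted p = 0.0564). That mean was taken from the fit of all 12 libraries.

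In the other 6 lists edgeR called 0 genes. The NRF2 regulators (13 tested, 3 at an unadjusted p under 0.05) had a median of 0.09 and were led by the small MAF gene MAFF (0.91 ± 0.29, adjusted p = 0.146). Glutathione synthesis, uptake and use (21 tested, 3 unadjusted) had a median of 0.01, with ABCC1, an exporter of glutathione conjugates, at 0.95 ± 0.28 (adjusted p = 0.119). For the thioredoxin and peroxiredoxin genes (10 tested, 3 unadjusted) the median was 0.13, with the sestrin SESN3 at 0.66 ± 0.24 (adjusted p = 0.188). Heme and iron genes (11 tested, 1 unadjusted) had a median of -0.13 and the porphyrin transporter ABCB6 at 0.75 ± 0.34 (adjusted p = 0.263). Quinone and xenobiotic enzymes (18 tested, 3 unadjusted) had a median of -0.26 and the conjugate exporter ABCC2 at -0.73 ± 0.23 (adjusted p = 0.142). Genes that remove superoxide and mitochondrial peroxide (8 tested, 2 unadjusted) had a median of -0.10 and CCS, the copper chaperone of SOD1, at -0.50 ± 0.22 (adjusted p = 0.253). The NADPH list, which holds ME1, had 6 tested members and a median of -0.16. Without the outlying libraries MAFF stood at 0.41, ABCC1 at 1.05, SESN3 at 0.43, ABCB6 at 0.21, ABCC2 at -0.48 and CCS at -0.61, and the 88 listed genes then tested had a median of -0.11. Over all 7 lists DESeq2 called 4 genes and limma-voom 1. Over all genes DESeq2 called 1543, limma-voom 178 and edgeR 220 in this comparison, so the 4 of DESeq2 has a larger background than edgeR's 1.

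The replicate differences described for the members ran in both directions among the 87 listed genes. In normoxia 22 of 87 (25.3%) were higher and 27 (31.0%) lower in replicate 2 of every line, next to 23.8% and 26.9% of all genes. In hypoxia 22 (25.3%) were lower and 23 (26.4%) higher in the outlying library of every line, next to 29.9% and 24.9% of all genes. The 4 genes that follow were chosen after their values were seen and show both directions. TXNRD1, which encodes cytosolic thioredoxin reductase, had 403 (A2058), 453 (A375) and 431 CPM (SKMEL-5) in normoxia 2, while normoxia 1 held 187, 234 and 162 CPM in the same order. SLC7A11, the cystine importer that feeds glutathione synthesis, had 6.73 (A2058), 16.4 (A375) and 15.1 CPM (SKMEL-5) in the outlying hypoxic libraries, while the other hypoxic ones held 116, 115 and 99.2 CPM. FTL, the light chain of the iron store ferritin, was higher in the outlying hypoxic libraries, with 2857 (A2058), 4666 (A375) and 3424 CPM (SKMEL-5), while the other hypoxic ones held 1267, 1542 and 1416 CPM. TXN, which encodes thioredoxin, had 81.0 (A2058), 140.5 (A375) and 228 CPM (SKMEL-5) in normoxia 2, all below the 175, 179 and 445 CPM of normoxia 1. Between A2058 and the other lines 15 of the 87 genes were higher and 15 lower, 34.5% in all, next to the 33.7% of all genes.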

How the data were processed

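The authors deposited raw counts for each gene in a single table, with no normalization. The submitters' processing notes name STAR 2.5.0a, Trim Galore 0.6.1 and bcl2fastq 2.20, and GRCh38 as the build. Per the labels' protocols, a NuGen Universal Plus mRNA kit was used on total RNA. Which program counted the reads, with which strand setting and annotation, is not given in the sources used here. Reads where genes overlap (SOD2 with WTAP, NFE2L2 with AGPS, SLC48A1 with RAPGEF3 and HDAC7, all on opposite strands) could thus have been assigned in more than 1 way.

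Symbols came from a reference table (60445 IDs, version ignored) and, where it had none, from GENCODE 29 (180 IDs, SOD2 among them). Positions and exon lengths are GENCODE 29's, whose versions of the 9 genes differ from the table's.

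The tests used edgeR 4.0.16 (R 4.3.3) on the counts: filterByExpr (minimum count 10, minimum total 15), TMM, and a quasi-likelihood fit of 6 group means to 12 libraries (6 residual and 5.02 prior degrees of freedom). Benjamini-Hochberg adjustment covered 19636 genes, and calls were made under 0.05. Fold changes and CPM are TMM-scaled; log2 CPM used a prior count of 2. Nothing but the series' word duplicates says that libraries came from separate cultures, and p-values measure the spread between them. The procedure was also run on simulated counts that had the same mean per gene in all lines. They held no outlying libraries and no shared replicate differences, so that run does not check for those. Alternatives were DESeq2 1.42.0 and its size factors, limma-voom (limma 3.58.1), other filters, a replicate block, and fits without some libraries. Comparisons of fewer lines or of 1 oxygen condition were taken from the fit of all 12 libraries. Named were the 9 members, CA9, for each list up to 3 called genes per direction or the gene of smallest p, and the genes of highest r. Members and lists were chosen with earlier results of these data known.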

Additional observations from a re-analysis of the deposited data

How the results depend on the processing

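The count of members called for hypoxia, 0 in the 3-line mean, within every line and between lines, stayed 0 under every alternative run with 1 exception: with no filter on low counts the 3-line mean gave 1 member, GCLM. Leaving out 1 library at a time gave 0 to 0 members there and 2 to 2 members in the comparison of A2058 with the other lines. That comparison gave 1 member in the hypoxic libraries alone and 0 in the normoxic libraries alone, with fewer samples. Over all genes the 3-line mean called 220 genes in edgeR, 1543 in DESeq2, 178 in limma-voom, 1855 with no filter and 30 without the 3 outlying hypoxic libraries. It called 15 genes without either normoxic A375 library and 1120 without A375 hypoxia 2. With a replicate block in the fit it called 91 genes and 0 members, with a smallest member adjusted p of 0.170. Within lines, hypoxic and normoxic libraries of the same number did not all deviate together (r of -0.304 for A2058, 0.234 for A375, 0.255 for SKMEL-5). The outlying hypoxic library is number 2 in A2058 and number 1 in the other lines, so this check cannot settle whether they were paired. They were not treated as pairs in the main fit. Across lines the number did go with shared differences in normoxia, where replicate 2 was higher than replicate 1 in every line for 23.8% of all genes and lower for 26.9%.

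Directions of uncalled members changed as follows, in log2, and the cause was not tested. Without the outlying libraries, hypoxia minus normoxia in A2058 was 0.075 for NFE2L2, 0.20 for SLC48A1, 0.056 for NQO1, -0.032 for GCLC and 0.17 for SRXN1, and in A375 -0.018 for NFE2L2, 0.0080 for KEAP1 and 0.011 for GCLM. With SKMEL-5 left out of the mean, SLC48A1 was -0.073. With limma-voom and with the replicate block, SRXN1 in A2058 was 0.25 and 0.22, and HMOX1 in A375 was 0.23 and 0.17. For A2058 minus the other lines, GCLC was 0.063 in hypoxic libraries alone and SOD2 -0.60 in normoxic libraries alone. There SRXN1 was 0.00084 with DESeq2's size factors, 0.00082 in DESeq2, 0.0085 with no filter, 0.0013 with a filter at 1 CPM in 2 libraries, 0.10 without the outlying libraries, 0.24 against SKMEL-5 alone and 0.14 in hypoxic libraries alone.

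With 1 library left out at a time, the 3-line mean ran from -0.024 to 0.23 for SLC48A1 and -0.42 to 0.19 for SRXN1. In A2058 the ranges were -0.34 to 0.11 for NFE2L2, -0.35 to 0.36 for SLC48A1, -0.46 to 0.090 for NQO1 and -0.68 to 1.18 for SRXN1. In A375 they were -0.016 to 0.11 for NFE2L2, -0.90 to 0.034 for KEAP1, -0.97 to 1.31 for HMOX1, -0.32 to 0.032 for SLC48A1, -2.09 to 0.15 for GCLM, -0.53 to 0.18 for SRXN1 and -2.08 to 0.024 for SOD2. SRXN1 in SKMEL-5 ran from -0.92 to 0.55. For A2058 minus the other lines GCLM ran from -0.46 to 0.21 and SRXN1 from -0.60 to 0.33, and for A375 minus SKMEL-5 HMOX1 ran from -0.29 to 0.85.

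Depth limits SRXN1 most, at 54 to 224 counts per library.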
